A study of Mus musculus with 10 samples.

Results

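Slc1a3, Nes, Vim, Fabp7, Sox2, Sox9 and Prom1, the classical markers of neuroepithelial cells and radial progenitors, were followed along the rostral to caudal axis of the mouse neocortex on E11.5. They were chosen by name, and every array probe whose only gene symbol in the platform annotation was one of these was taken. This gave 9 probes of 21766, for 7 genes of 15063 named genes: 3 probes for Slc1a3 and 1 for each of the others. Their gene identifiers are 20512 for Slc1a3, 18008 for Nes, 22352 for Vim, 12140 for Fabp7, 20674 for Sox2, 20682 for Sox9 and 19126 for Prom1, and no coordinates are given because the build behind the probes is not named. Of these, 7 probes for 6 genes were measured often enough to be tested, among 11855 probes tested in all.

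The study compared RNA from the caudal end with RNA from the rostral end of the neocortex, the middle being left out, in MF1 mice, an outbred strain, and in C57 mice, an inbred strain. The labels name no genotype or treatment for either strain, and each RNA pool came from 3 embryos. MF1 gave 3 pools on 6 arrays and C57 gave 2 pools on 4 arrays, since the caudal and rostral RNA of each pool were hybridised together on a pair of arrays with the dyes exchanged. The RNA was amplified as cDNA before labelling, and embryos within a pool cannot be separated.

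At this age most cells of the cortical wall are dividing neuroepithelial cells that reach from the ventricle to the outer surface. As neurogenesis begins they turn into radial glia, which keep the filament proteins nestin and vimentin, the transcription factor Sox2 and the apical membrane protein prominin, and gain astroglial genes such as the glutamate transporter GLAST, encoded by Slc1a3, and the brain lipid-binding protein, encoded by Fabp7. Cortical development is known to proceed along gradients, so that regions of one cortex differ in maturity at one time.

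Each value is the log2 of caudal signal divided by rostral signal, and a negative one means more signal from the rostral end. Which channel the deposited ratios have on top is not stated in the labels or the table. They were read as Cy5 over Cy3, and this direction is likely: under it both Nr2f1 probes, for a factor known to be high in caudal cortex, averaged 1.85 and 0.57, and the FGF-responsive rostral genes Spry1, Dusp6 and Etv1 averaged -1.28, -1.07 and -1.43. The other genes of these lists had ratios nearer 0. On the rostral list they were Etv5, at -0.43 and -0.09 by 2 probes, Fgf8 at -0.01, Fgf17 at 0.13 and Pax6 at 0.10 and 0.02 by 2 probes, and on the caudal list Wnt3a at 0.45, Lhx2 at 0.32, Emx2 at 0.10 and Wnt8b at -0.04. The direction thus rests on few genes of large ratio. A ratio carries no expression level, so the presence of the markers in the tissue cannot be read from it, and genes cannot be ranked by abundance. In whole tissue, fewer cells of a type and less RNA per cell cannot be told apart.

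The arrays were noisy, and this bears on every value below. After both arrays of a pool were turned to the same direction, their correlation over the tested probes was between -0.12 and 0.0092 in the 5 pools, and correlations between pools ran from -0.23 to 0.24. The number of probes with a ratio was 13723 to 18288 on the MF1 arrays and 20191 to 20870 on the C57 arrays. The median ratio of the tested probes was -0.18, 0.13 and 0.15 in MF1 pools 1, 2 and 3, and -0.10 and 0.36 in C57 pools 1 and 2. In MF1 pool 1, 75.3% of probes were negative, against 4.53% in C57 pool 2. Values are given as deposited, and where it matters also after each array was centred on its own median. The series' text says that pools came from single litters but not whether each had a litter of its own, so the p-values measure the spread between these pools, and the small number of arrays limits the precision.

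Promoter sequences are given for 3 members: Slc1a3 and Fabp7, which had the lowest mean ratios of the tested members, and Vim, whose ratio was above that of Fabp7 in every pool. They are the 250 bases before the annotated start in RefSeq, build GRCm38.p6, read 5′ to 3′ on the gene's strand. The motifs below were searched on both strands, and capitals mark every match: CCAAT (the NF-Y box), TATAAA (the TATA box), ACAAT (a SOX core), TAATTA (a homeodomain core), TGGGAA (an RBPJ core) and ATGCAAAT (the POU octamer).
Slc1a3, chr15:8710808-8711057, minus strand: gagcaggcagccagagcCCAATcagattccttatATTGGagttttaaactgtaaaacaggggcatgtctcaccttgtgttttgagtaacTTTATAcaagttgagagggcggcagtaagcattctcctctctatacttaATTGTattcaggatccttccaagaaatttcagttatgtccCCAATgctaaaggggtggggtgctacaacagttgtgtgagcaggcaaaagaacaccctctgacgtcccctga
Fabp7, chr10:57784673-57784922, plus strand: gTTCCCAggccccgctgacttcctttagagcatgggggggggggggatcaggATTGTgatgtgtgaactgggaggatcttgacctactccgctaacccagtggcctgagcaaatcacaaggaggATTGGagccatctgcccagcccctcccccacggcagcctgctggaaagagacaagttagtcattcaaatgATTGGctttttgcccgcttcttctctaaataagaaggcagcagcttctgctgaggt
Vim, chr2:13574061-13574310, plus strand: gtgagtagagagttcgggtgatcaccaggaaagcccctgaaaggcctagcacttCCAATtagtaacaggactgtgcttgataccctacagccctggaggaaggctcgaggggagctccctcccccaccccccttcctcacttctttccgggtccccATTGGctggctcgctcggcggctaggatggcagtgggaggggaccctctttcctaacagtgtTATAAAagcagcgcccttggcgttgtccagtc
A promoter was listed for 6 of the 7 members. CCAAT occurred in all 3 of those printed, and in 33.8% of the 32851 promoters of the table. ACAAT was found once in Slc1a3 and once in Fabp7, against 27.7% of promoters, and did not occur in these 250 bases of Vim. TGGGAA occurred once in Fabp7, on the minus strand, and in 21.6% of promoters. The TATAAA of Vim lay at positions -32 to -27 from the start, while that of Slc1a3 was on the minus strand at -161 to -156, and 12.4% of promoters held this motif. TAATTA, in 4.84% of promoters, and ATGCAAAT, in 1.6%, matched none of the 3. GC content was 44.8% in Slc1a3, 54.8% in Fabp7 and 58.4% in Vim, against a median of 52.4%. These matches describe the letters and were not tested as sites.

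Slc1a3 encodes GLAST, which takes up glutamate and marks radial glia and astrocytes. One of its probes, called probe 3 here, was the member that lay furthest to the rostral side. Its ratio was -0.50, -0.82 and -0.26 in MF1 pools 1, 2 and 3, and -0.73 and -0.38 in C57 pools 1 and 2. All 5 pools were below 0, the strains overlapped, and the pools of each strain differed by more than the strain means of -0.52 in MF1 and -0.55 in C57. The mean of both strains was -0.54 ± 0.16 (limma SE, 95% interval -0.93 to -0.14), or 1.45-fold more signal in rostral RNA. The adjusted p from limma was 0.983, so this difference did not pass the test across all probes, although its unadjusted p of 0.0161 was the 138th smallest of the 11855.

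The same probe was negative on every one of the 10 arrays. The arrays with caudal RNA in Cy5 gave -0.26, -0.09 and -0.08 in the MF1 pools and -0.81 and -0.01 in the C57 pools. With rostral RNA in Cy5 the values were -0.73, -1.54 and -0.43 in the MF1 pools and -0.66 and -0.75 in the C57 pools. The direction was shared by both dye orientations, but 4 of the 5 pools had the lower value when rostral RNA carried Cy5. Across all probes measured in every pool, 0.213% were negative on all 10 arrays and 0.728% in all 5 pools. After centring, the mean was -0.59 ± 0.14 with an adjusted p of 0.785 by limma, and the probe was again negative on all 10 arrays, as were 0.336% of probes. Within each pool it ranked between percentile 19.5, in MF1 pool 1, and percentile 1.46, in C57 pool 2, counting from the rostral end. The mean lost its unadjusted p below 0.05 when MF1 pool 2 or C57 pool 1 was left out, with values of -0.46 and -0.45.

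Probe 2 of Slc1a3 did not follow probe 3. Its ratio was -1.26, 1.61 and 1.19 in MF1 pools 1, 2 and 3, and -1.25 and -0.36 in C57 pools 1 and 2. It lay near the rostral end in MF1 pool 1 and in both C57 pools and near the caudal end in the other MF1 pools, where it stood at percentiles 96.4 and 93.2. The mean of both strains was -0.15 ± 0.46 (SE, adjusted p 0.983 by limma). Within pools, probe 2 exceeded probe 3 by 2.43 and 1.44 in MF1 pools 2 and 3, while the difference was -0.76 in MF1 pool 1 and -0.52 and 0.02 in C57 pools 1 and 2.

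Probe 1 of Slc1a3 had a ratio on 7 arrays and both orientations only in the C57 pools, at -0.87 and 0.19, and was not tested. Its lone MF1 arrays read 0, -3.98 and 3.26, in MF1 pools 1, 2 and 3, which spans the whole range of the members. With the loosest filter, which kept such single arrays, its mean was -0.29 ± 1.08 (SE, adjusted p 0.986 by limma). The 3 probes of the gene thus disagreed in MF1, and only probe 3 had one sign throughout. With the tested probes averaged before the fit, Slc1a3 had a mean of -0.34 and an adjusted p of 0.977 by limma.

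**Figure D1:**
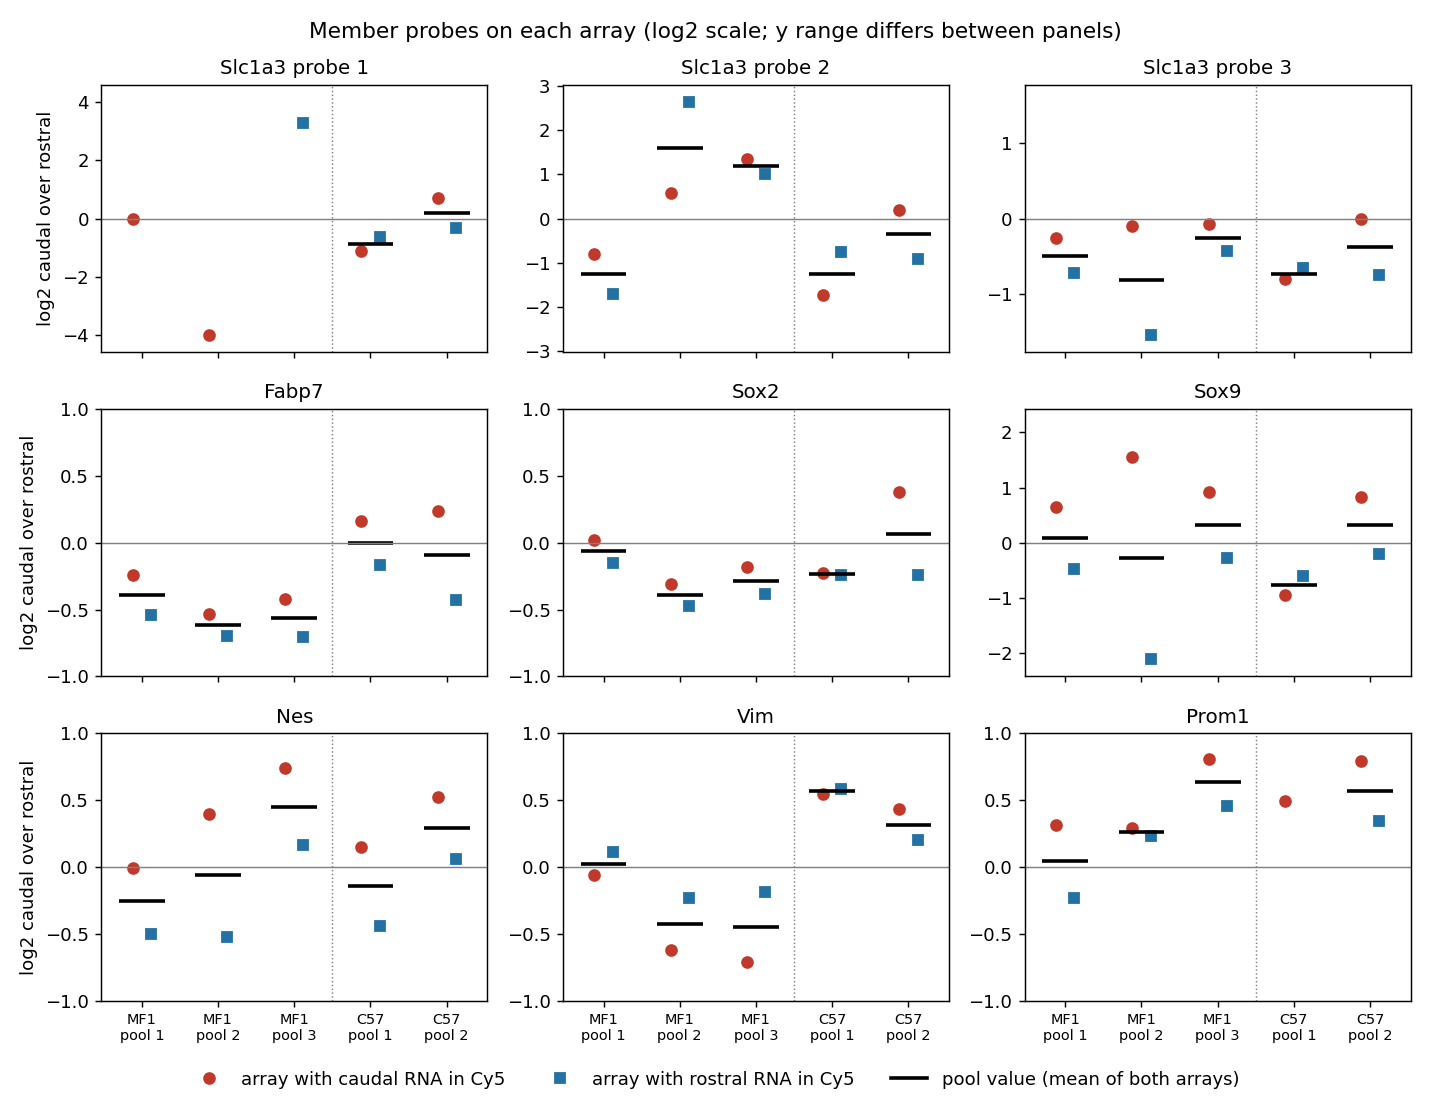
Log2 ratio of caudal over rostral signal for the 9 member probes, one panel per probe, with the MF1 pools left of the C57 pools. Circles are arrays with caudal RNA in Cy5, squares are arrays with rostral RNA in Cy5, and bars are their mean per pool. Slc1a3 probe 3 is below 0 on all 10 arrays and Fabp7 on all 6 MF1 arrays, while the circles and squares of Sox9 in MF1 pool 2 are 3.66 apart.

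Fabp7 encodes the brain lipid-binding protein, a fatty acid carrier that appears in radial glia as neurogenesis starts. As deposited, it was on the rostral side in MF1 and near 0 in C57. Its ratio was -0.39, -0.62 and -0.56 in MF1 pools 1, 2 and 3, and 0 and -0.09 in C57 pools 1 and 2. The 3 MF1 pools were all below both C57 pools before centring. All 6 MF1 arrays were negative, a pattern shown by 1.89% of probes as deposited and by 1.43% after centring, whereas in C57 the sign changed with the dye in both pools, with 0.16 and 0.24 where caudal RNA was in Cy5 and -0.16 and -0.43 where it was in Cy3.

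Fabp7 averaged -0.52 ± 0.17 in MF1 and -0.05 ± 0.21 in C57 (SE). In MF1 the unadjusted p was 0.0241 and the limma adjusted p was 0.995. The difference between the strains was -0.48 ± 0.27, with a 95% interval of -1.15 to 0.20 and an adjusted p of 0.999 by limma, so a difference was not shown, nor was the absence of one. The mean of both strains was -0.28 ± 0.14 (SE, adjusted p 0.983 by limma), and -0.34 after centring. Centring moved C57 pool 2, whose median was 0.36, and there Fabp7 stood at percentile 3.14 of the tested probes, against percentile 63.9 in C57 pool 1. The centred values were 0.18 in C57 pool 1 and -0.46 in C57 pool 2. The value in C57 pool 2 was below that of MF1 pool 1, at -0.21.

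Sox2, a transcription factor that keeps neural progenitors undifferentiated, had small ratios, below 0 in 4 of 5 pools. The values were -0.06, -0.39 and -0.28 in MF1 pools 1, 2 and 3, and -0.23 and 0.07 in C57 pools 1 and 2. The strains overlapped, and no pool's ratio was larger than 1.31-fold in either direction. The mean was -0.16 ± 0.14 (SE, 95% interval -0.52 to 0.19, adjusted p 0.983 by limma), with -0.25 in MF1 and -0.08 in C57. Of the 10 arrays 8 were negative, and 9 after centring.

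Sox9, a transcription factor that is needed for neural stem cells to form and for the change to glial production, had no stable direction. Its ratio was 0.09, -0.28 and 0.33 in MF1 pools 1, 2 and 3, and -0.77 and 0.32 in C57 pools 1 and 2. These means hid large differences between the dye orientations. With caudal RNA in Cy5 the MF1 pools gave 0.65, 1.55 and 0.93, and with rostral RNA in Cy5 they gave -0.48, -2.11 and -0.27. Each orientation was 1 array per pool, and whether the dye caused the difference was not tested. Every MF1 pool had opposite signs in its pair of arrays, while C57 pool 1 was negative on both. The mean was -0.09 ± 0.21 (SE, adjusted p 0.983 by limma). It became 0.49 when only arrays with caudal RNA in Cy5 were used, and -0.68 with only those of rostral RNA in Cy5.

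Nes encodes nestin, the intermediate filament protein by which neural stem cells are commonly recognised. Its ratio was -0.25, -0.06 and 0.45 in MF1 pools 1, 2 and 3, and -0.15 and 0.29 in C57 pools 1 and 2. Both signs occurred in each strain, and after centring the values lay between -0.15 and 0.33. The mean was 0.06 ± 0.17 (SE, 95% interval -0.37 to 0.49, adjusted p 0.983 by limma), and the strains differed by -0.03 with an interval of -0.89 to 0.84. Nes held the middle of each pool, between percentile 34.2 and percentile 72.1.

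Vim encodes vimentin, the filament protein that assembles with nestin in these cells. Its ratio was 0.03, -0.43 and -0.45 in MF1 pools 1, 2 and 3, and 0.57 and 0.32 in C57 pools 1 and 2. Both C57 pools were above all MF1 pools, and both arrays of every pool except MF1 pool 1 had the same sign. Vim averaged -0.28 ± 0.19 in MF1 and 0.44 ± 0.24 in C57 (SE), a difference of -0.72 ± 0.31 with a 95% interval of -1.49 to 0.04. Its unadjusted p was 0.059 and its adjusted p 0.999 by limma. The mean of both strains was 0.08 ± 0.15 (SE, adjusted p 0.983 by limma).

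The separation of the strains at Vim was not independent of the scaling of the arrays. After centring, the difference was -0.64 ± 0.39 (SE, adjusted p 0.999 by limma), and MF1 pool 1, at 0.21, then lay above C57 pool 2, at -0.05. Vim and Fabp7 were the 2 of 7 tested members with both C57 pools above all MF1 pools, a pattern that 15.2% of probes showed. With centred arrays it was seen in 0 of 7 members and in 6.49% of probes. The median of MF1 minus C57 over all tested probes was -0.10 as deposited and -0.01 after centring, and the part of this shift in the values of both members was not tested.

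Prom1 encodes prominin-1, a membrane protein of the apical protrusions of neuroepithelial cells. It was not tested, because C57 pool 1 had a ratio on 1 array only, at 0.49 with caudal RNA in Cy5. Where both arrays were measured, its ratio was 0.04, 0.26 and 0.63 in MF1 pools 1, 2 and 3, and 0.57 in C57 pool 2. All 4 were on the caudal side, and Prom1 stood at percentiles 79.7, 60.9 and 80.7 in the MF1 pools and 87.8 in C57 pool 2. With the loosest filter its mean was 0.42 ± 0.18 (SE, adjusted p 0.942 by limma). Of its 9 arrays 1 was negative, in MF1 pool 1.

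**Figure D2:**
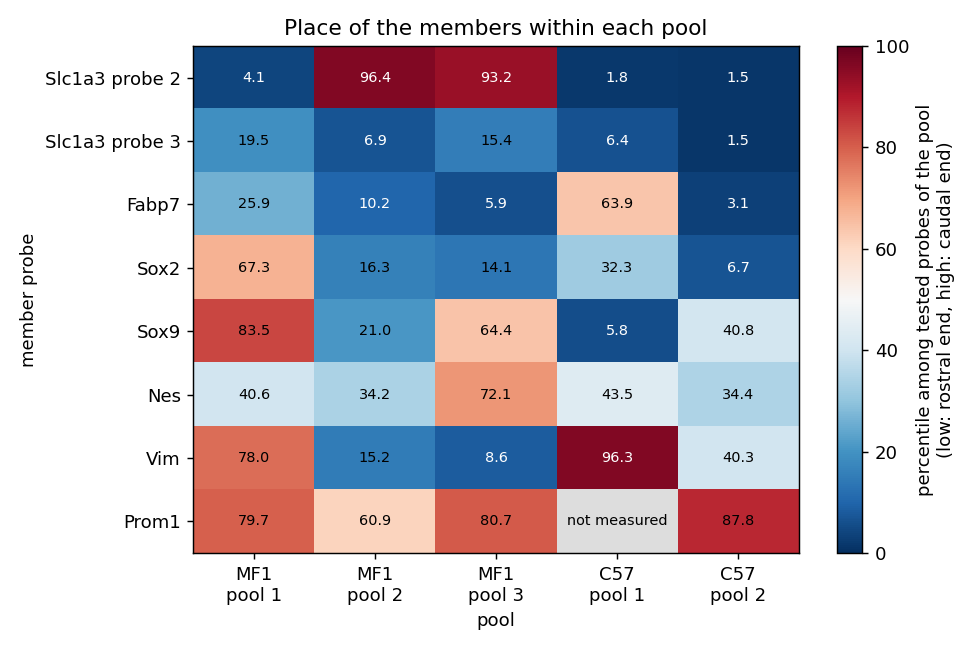
Percentile of each member probe among the tested probes measured in each pool, counted from the rostral end, and the MF1 pools left of the C57 pools. Slc1a3 probe 3 is at percentile 19.5 or lower in all 5 pools, Nes stays between 34.2 and 72.1, and Prom1 is at 60.9 or above in the 4 pools where it was measured on both arrays.

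Over the members together, 0 of 7 tested probes passed limma's adjusted p of 0.05 for the mean of both strains, as did 0% of all tested probes, and the smallest adjusted p of any probe was 0.567. At an unadjusted p below 0.05 there was 1 of 7, Slc1a3 probe 3, against 3.1% of all probes. In MF1 there were 2 of 7, Slc1a3 probe 3 and Fabp7, against 3.96%, and in C57 there were 0 of 7, against 1.81%. For the difference MF1 minus C57 there were 0 of 7, against 1.88%. Adjusted p-values below 0.05 were absent in these 3 comparisons too, for members and for all probes (0%).

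Of the 7 tested member probes, 5 had a negative mean, while 30.6% of all tested probes did. Prom1, with a mean of 0.42 by the loosest filter, was not among the 7. The member median was -0.15, which is the ratio of Slc1a3 probe 2 (SE 0.46), and the median of all tested probes was 0.09. After centring these were -0.20 and 0.04, and again 5 of 7 were negative. The median of the members was -0.25 in MF1 and -0.08 in C57, where the medians of all probes were 0.03 and 0.13. By pool the member medians were -0.25, -0.39 and -0.26 in MF1 pools 1, 2 and 3, and -0.23 and 0.07 in C57 pools 1 and 2, each below the median of all probes in that pool. One member of 7 was negative in all 5 pools and none was positive in all 5, as 4.16% of probes were. The 2 Slc1a3 probes share a gene, so these counts do not rest on 7 separate genes.

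**Figure D3:**
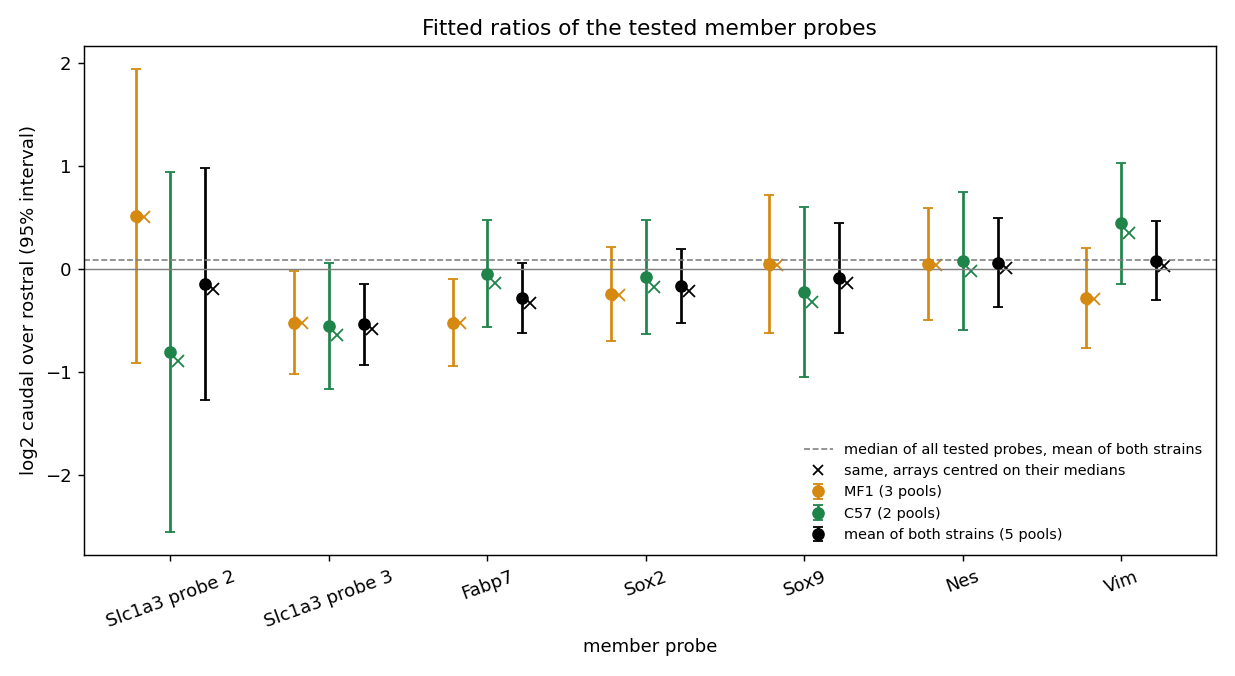
Fitted log2 ratios of caudal over rostral for the 7 tested member probes in MF1, in C57 and for the mean of both strains, with 95% limma intervals. Crosses are the same values after centring the arrays, and the dashed line is the median of all tested probes for the mean of both strains, 0.09. The interval of the mean excludes 0 for Slc1a3 probe 3, at -0.93 to -0.14, before adjustment over all probes.

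Differences between members within a pool do not depend on how an array is centred. Of the 21 pairs of tested member probes, 2 had one sign in all 5 pools. Nes exceeded Slc1a3 probe 3 by 0.24, 0.76 and 0.71 in MF1 pools 1, 2 and 3, and by 0.59 and 0.67 in C57 pools 1 and 2, on average by 0.59 ± 0.20 (SD). Vim exceeded Fabp7 by 0.42, 0.19 and 0.11 in the MF1 pools and by 0.57 and 0.41 in the C57 pools, on average by 0.34 ± 0.18 (SD). Both pairs set a filament gene against a glial gene, and they were singled out of the 21 by their constant sign. Of the other such combinations, Vim exceeded Slc1a3 probe 3, and Nes exceeded Fabp7, in 4 of 5 pools each. With Slc1a3 probe 2 neither did so steadily, since Nes exceeded it in 3 of 5 pools by a mean of 0.07 and Vim in 3 of 5 pools by a mean of 0.02. Such differences were not particular to the filament genes. Sox9 and Sox2 exceeded Slc1a3 probe 3 in 4 of 5 pools each, by means of 0.47 and 0.36. They also exceeded Fabp7 in 4 of 5 pools each, by means of 0.27 and 0.15. The exact two-sided sign-change test over 5 pools cannot go below 0.0625. The 2 pairs of constant sign reached this value, and their p adjusted over the 21 pairs was 0.525.

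The pair of tested members with the most similar profile over the 5 pools was Fabp7 and Sox2, with a root mean square difference of 0.25. Slc1a3 probe 3 was 0.39 from Fabp7 and 1.33 from its own gene's probe 2. Vim was 0.38 from Fabp7 and Nes 0.34 from Sox9. Profiles of probes measured on the same arrays share the medians of those arrays.

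By the same measure, the 3 named probes nearest to each member were sought among 7529 or 7530 probes of other genes. For Slc1a3 probe 3 they were Dcc, a netrin receptor (0.17), Nktr (0.19) and Etv5, a transcription factor induced by FGF signalling (probe 1, 0.20). Dcc was at -0.51, -0.75 and -0.48 in MF1 pools 1, 2 and 3, and at -0.46 and -0.26 in C57 pools 1 and 2, and this Etv5 probe (probe 1) was likewise negative in all 5 pools, while Etv5 probe 2 was negative in 3 and averaged -0.09. For Fabp7 they were Tmod1 (0.085), Ptprz1, a receptor phosphatase of radial glia (0.096), and Casp4 (0.11). Sox2 had Cdh6, a cadherin (0.037), Sin3b (0.087) and Tacc2 (0.099).

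The nearest probes to Nes were Arf5 (0.031), Zc3h13 (0.054) and 2700049A03Rik (0.070), and those to Vim were Piwil1 (0.096), Ruvbl2 (0.10) and Clta, a clathrin light chain (0.11). Sox9 was nearest to Inhba, an activin subunit (0.12), Ror1, a WNT receptor (0.13), and Cep295nl (0.15). Slc1a3 probe 2 was nearest to 4833413N01Rik (0.25), Clock (0.45) and Otud4 (0.48). With 5 pools and so many candidates, closeness of this kind is a description only.

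The later radial glial and glial genes, which extend the Slc1a3 and Fabp7 programme, had 7 negative and 14 positive probes of 21 tested and a median of 0.13, above the 0.09 of all probes. No probe passed the adjusted test, and 1 had an unadjusted p below 0.05. That was Ptn, a secreted growth factor of radial glia, at -0.42, -0.73 and -0.76 in MF1 pools 1, 2 and 3, and at -0.47 and -0.14 in C57 pools 1 and 2, with a mean of -0.47 ± 0.15 (SE, adjusted p 0.983 by limma). Ttyh1, a membrane protein of radial glia, averaged -0.54 in MF1 and -0.05 in C57. Apoe, the lipid carrier of astrocytes, was on the caudal side with a mean of 0.34 ± 0.16 (SE, adjusted p 0.983 by limma).

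Ptprz1, a receptor of the Ptn protein, resembled Fabp7 in its values. It stood at -0.36, -0.75 and -0.42 in MF1 pools 1, 2 and 3, and at -0.04 and -0.02 in C57 pools 1 and 2. Ptn and Ptprz1 were the 2 probes of this list that were negative in all 5 pools, of 18 measured in every pool. Of all probes measured in every pool, 0.728% were so. Ptprz1 was near 0 in both C57 pools as deposited. The medians of all tested probes there were -0.1 in C57 pool 1 and 0.36 in C57 pool 2. The list as a whole had medians of 0.11 in MF1 and 0.16 in C57, so the list itself was not on the rostral side.

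**Figure D4:**
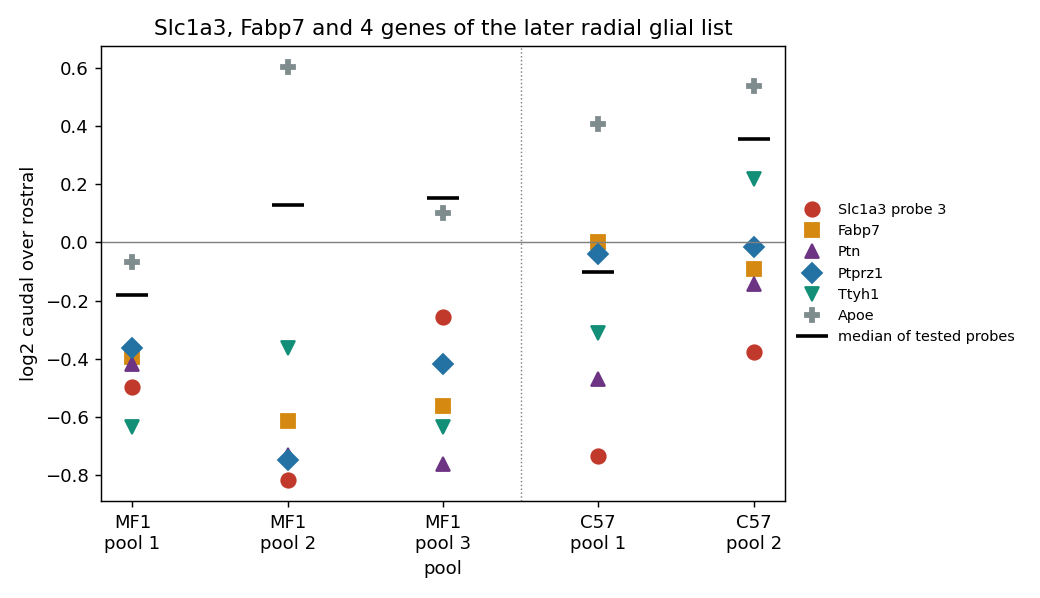
Log2 ratio of caudal over rostral in each pool for Slc1a3 probe 3, Fabp7 and 4 genes of the later radial glial list, as one symbol per gene, with the MF1 pools left of the C57 pools. Ptn, Apoe and Ttyh1 had the smallest p of that list and Ptprz1 was among the nearest probes to Fabp7; black bars are the median of all tested probes, from -0.18 in MF1 pool 1 to 0.36 in C57 pool 2. Slc1a3 probe 3, Ptn and Ptprz1 are below 0 in all 5 pools and Apoe is above 0 in 4.

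Neuroepithelial regulators, most of them transcription factors, had 2 negative and 12 positive probes of 14 and a median of 0.16. Of all tested probes, 30.6% were negative, and their median was 0.09. After centring 3 of the 14 were negative, and none of the 14 had an unadjusted p below 0.05. Lhx2, a selector of cortical identity, averaged 0.32 ± 0.15, Sox1, a relative of Sox2, averaged 0.31 ± 0.15, and Otx1 averaged 0.27 ± 0.19 (SE, adjusted p 0.983 each by limma). Sox1 was positive in all 5 pools, as were 4.16% of probes measured in every pool. It stood at 0.24, 0.76 and 0.53 in MF1 pools 1, 2 and 3, and at 0.04 and 0.19 in C57 pools 1 and 2. The median of all tested probes in C57 pool 2 was 0.36, above Sox1. Sox2, of the same subfamily, was negative in 4 of the 5 pools.

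Apical junction and polarity genes, which organise the ventricular surface where prominin-1 sits, had 3 negative and 9 positive probes of 12 and a median of 0.14. Prkci, encoding an atypical protein kinase C of the apical complex, had the one unadjusted p below 0.05. Its probe 1 stood at 1.92 and 1.27 in MF1 pools 2 and 3, with no value in MF1 pool 1, and at -0.49 and 0.54 in C57 pools 1 and 2, so the fit for it dropped 1 pool. The mean was 0.81 ± 0.25 (SE, adjusted p 0.983 by limma). Ctnnb1, the beta-catenin of adherens junctions, averaged 0.45 ± 0.27 and Itga6, a laminin receptor subunit, averaged 0.39 ± 0.26 (SE, adjusted p 0.983 each by limma).

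The list of intermediate filament partners, which also includes nuclear lamins, had 1 negative and 8 positive probes of 9 and a median of 0.11. The negative one was Lmna, encoding the A-type nuclear lamins, with -0.36 and -1.07 in MF1 pools 1 and 2 and -0.70 and -0.82 in C57 pools 1 and 2. It had no value in MF1 pool 3, and its mean was -0.74 ± 0.20 (SE, adjusted p 0.983 by limma). Sync, encoding syncoilin, averaged 0.54 ± 0.37 and rested on 2.42 in C57 pool 1. Nefh, the heavy neurofilament chain, averaged 0.34 ± 0.24 over 4 pools (SE, adjusted p 0.983 each by limma).

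Relatives of the members were sought in the Sox, Fabp, Slc1a, prominin and filament families, but no prominin relative was tested. The 17 tested probes were 2 negative and 15 positive, with a median of 0.11 and no unadjusted p below 0.05. After centring, 7 of the 17 were negative. Fabp5, the epidermal fatty acid carrier, averaged 0.28 ± 0.18, Fabp4, over 4 pools, 0.10 ± 0.22 and Fabp3 -0.18 ± 0.17. Fabp2, the intestinal form, averaged -0.90 ± 0.53 and ranged from -2.96 in MF1 pool 1 to 0.50 in MF1 pool 3. Among glutamate and amino acid transporters, Slc1a1 probe 1 averaged 0.30 ± 0.19 and Slc1a5 0.03 ± 0.19. None of these relatives was negative in all 5 pools, as Slc1a3 probe 3 was.

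Of the Sox relatives, Sox4 averaged 0.27 ± 0.18, Sox10 0.05 ± 0.22 and Sox5 0.01 ± 0.18, and the 3 probes of Sox11 gave 0.02, 0.23 and 0.23. Sox4 and Sox11 act in newborn neurons. Of the filament genes, Nefm averaged 0.19 ± 0.18, Gfap probe 1 0.11 ± 0.18 and Ina 0.01 ± 0.20. The adjusted p by limma was between 0.983 and 0.998 for all of these relatives, and errors are SE.

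Genes of processes next to progenitor identity were spread around the median of all probes. The Notch pathway, which holds progenitors in the cycle, had 4 negative and 7 positive probes of 11 and a median of 0.17. Its Hey1, a Notch effector, averaged 0.44 ± 0.16 (SE, unadjusted p 0.0327, adjusted p 0.983 by limma), while Rfng, a glycosyltransferase, averaged 0.26 and Nrarp, a feedback inhibitor, averaged -0.33 over 4 pools. Neurogenic and neuronal genes had 6 negative and 15 positive probes of 21 and a median of 0.11. Neurod1, a factor of committed neuronal precursors, was positive in all 5 pools, as were 4.16% of probes measured in every pool. It stood at 0.64, 0.54 and 0.75 in MF1 pools 1, 2 and 3, and at 0.74 and 0.92 in C57 pools 1 and 2. Nhlh2 averaged 0.62 ± 0.17 and Cdkn1c, a cell cycle inhibitor, averaged -0.68 ± 0.22 (SE, adjusted p 0.983 each by limma).

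Cell cycle genes had 3 negative and 20 positive probes of 23 and a median of 0.10. The D-type cyclins differed in sign, with Ccnd2 at 0.68 ± 0.19 and 0.86 ± 0.29 by its 2 probes and Ccnd1 at -0.68 ± 0.23 (SE, adjusted p 0.983 each by limma). In no list of these neighbouring processes was the median below 0, and the member median of -0.15 was the one negative value among these 9 lists. That member median is the ratio of Slc1a3 probe 2, whose pools disagreed in sign, and it leaves out Prom1. The members were chosen with earlier results of these data known, so their place among the lists is a description.

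**Figure D5:**
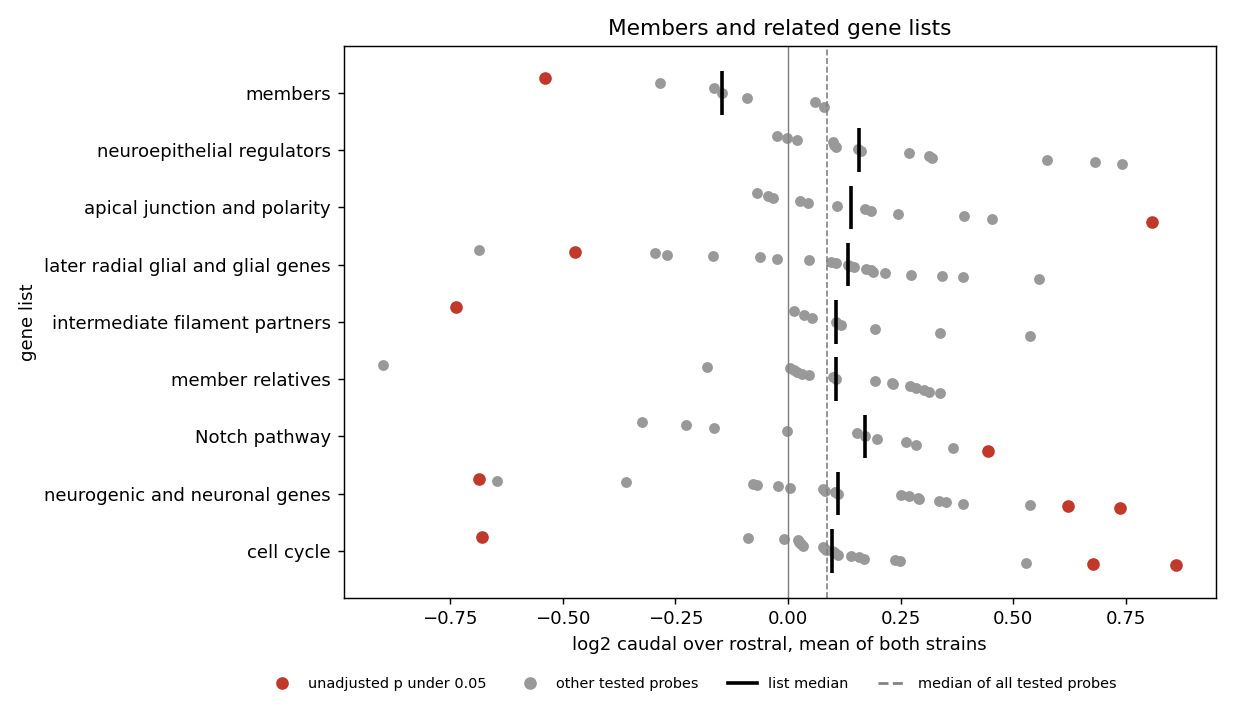
Mean log2 ratio of caudal over rostral for every tested probe of the members and of 8 related gene lists, with list medians as black bars and the median of all tested probes, 0.09, as a dashed line. Red points had an unadjusted p below 0.05 and none passed adjustment over all probes. The member median is -0.15 and the list medians run from 0.10 for cell cycle genes to 0.17 for the Notch pathway.

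Markers of tissue that lies beside the neocortex were examined as well, and none passed the adjusted test. Surface ectoderm genes were all negative, 5 of 5 with a median of -0.33, of -0.73 in MF1 and -0.28 in C57, and the keratin Krt18, of smallest p, was at -2.61 in MF1 and -0.28 in C57 (4 pools). Ventral telencephalon genes had 7 negative of 12 and a median of -0.24, of -0.14 in MF1 and -0.03 in C57. The homeobox gene Dlx2, the one of smallest p, was at -1.58 in MF1 and 0.06 in C57. Its neighbour Dlx1 was at -1.69 in MF1 and -0.28 in C57. The other probes of this list ran in MF1 from -0.80 for Ebf1 to 0.77 for Lhx6 probe 2, each over 4 pools in the fit. Neural crest genes had 2 negative of 3 and a median of -0.32, with Col2a1, a cartilage collagen, the one of smallest p.

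On the caudal side, hem and choroid plexus genes had 8 positive of 10 and a median of 0.24, with the smallest p for the transthyretin gene Ttr at 1.68 ± 0.19 (SE, adjusted p 0.567 by limma). Blood genes had 6 positive probes of 6, for 5 genes, and a median of 0.41, of 0.08 in MF1 and 0.62 in C57. The smallest p was that of the embryonic globin Hbb-y, at 0.14 in MF1 and 0.90 in C57. Endothelial and mesenchymal genes took neither side, with medians below that of all tested probes. The endothelial list had 5 positive of 9 and a median of 0.01, and its probe of smallest p was Esam at 1.04 over 4 pools. The mesenchymal list had 5 positive of 8 and a median of 0.04, with the fibrillin Fbn2 of smallest p at 0.52, and the collagen genes Col3a1 at -0.44, over 4 pools, and Col1a2 at -0.26. The 9 rostral gradient probes had a median of -0.09 and the 6 caudal gradient probes a median of 0.38. Ratios give no summed level of these markers, and whether the amount of such tissue at either end took part in the values of Slc1a3, Fabp7 or Vim was not tested.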

How the data were processed

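Caudal and rostral RNA of each pool was compared on 2-colour oligonucleotide arrays, and per the labels each pool was hybridised with the dyes exchanged. The deposited values lie on a log2 scale as channel ratios, judged from their signs and range. The labels name no scanner, background correction or normalization by the authors, and no depth or intensity was used. The series' text mentions 3 sets for each strain, and one C57 set was not analysed here.

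Values at the ceiling of 16.61 (436 of them) were treated as missing and 232 control spots were left out. Of the probes, 16632 had 1 symbol, 139 several and 4995 none. Signs were turned so that caudal is on top, and both arrays of a pool were averaged. A probe was tested with both orientations in at least 2 pools of each strain. limma 3.58.1 in R 4.3.3 (lmFit, eBayes) fitted a coefficient per strain, two-sided, with Benjamini-Hochberg adjustment over 11855 probes. Errors are moderated SE. Figures used Python 3.11.15 and matplotlib 3.10.9. In simulated data with 200 changed probes, the fit for the mean of both strains called 0 of them at a log2 change of 0.5, 67 at 1 and 194 at 2, with 0, 11 and 12 unchanged probes also called.

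The members and all gene lists were chosen with earlier results of these data known. Named genes were every member probe, all tested relatives, the 3 probes of smallest p per pathway list and 1 per tissue list, the 3 nearest probes per member and the gradient genes. Ptprz1, Dlx1, Col3a1 and Col1a2 were also described after their values were seen. Alternatives in scaling, filter, dye, block, weights and left-out pools were run.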

Additional observations from a re-analysis of the deposited data

How the results depend on the processing

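No member passed limma's adjusted p under any alternative run, and the means of Slc1a3 probe 3, Fabp7 and Sox2 stayed negative in all of them, with Slc1a3 probe 3 between -0.80 (rostral RNA in Cy5) and -0.28 (caudal RNA in Cy5). Its unadjusted p did not pass 0.05 on the caudal-Cy5 arrays, without MF1 pool 2 or without C57 pool 1, so members at that level numbered 0 on caudal-Cy5 arrays, 2 on rostral-Cy5 arrays and 0 to 1 with 1 pool left out. Negative members, 5 as reported, numbered 3 without C57 pool 1 and up to 6 with another pool left out, 7 with mean-centred arrays, 6 with scaled arrays, with rostral RNA in Cy5 or with the pool number as replicate block, and 4 with caudal RNA in Cy5 or pool weights. Probes called over the whole table numbered 1 for the mean and 2 for C57 with scaled arrays. With 10 arrays fitted singly and the pool as replicate block they numbered 1 for the mean, and after centring, an alternative added after seeing the data, 8 for the mean and 2 for C57, with 2 members at an unadjusted p below 0.05 in both. For MF1, calls ran from 0 to 37 with 1 pool left out (37 without MF1 pool 1, 24 without MF1 pool 3), none of them a member. For the mean of both strains the sign turned for Nes, at -0.0227 with scaled arrays, -0.0222 with mean-centred arrays, -0.24 with rostral RNA in Cy5 and -0.0419 with the pool number as replicate block, and for Vim at -0.0023 (mean-centred), Sox9 at 0.49 (caudal RNA in Cy5) and Slc1a3 probe 2 at 0.0701 (pool weights). For MF1 minus C57 it turned for Nes at 0.0584 (centred, and 0.0584 for centred single arrays), 0.0874 (scaled), 0.0468 (mean-centred), 0.0402 (caudal RNA in Cy5) and 0.14 (weights), for Sox2 at 0.13 (scaled), for Slc1a3 probe 3 at -0.20 (rostral RNA in Cy5) and -0.10 (number as replicate block) and for Sox9 at -0.56 (rostral RNA in Cy5). With 1 pool left out the means ran from -0.05 to 0.17 for Nes, from -0.42 to 0.30 for Slc1a3 probe 2 and from -0.36 to 0.18 for Sox9, and the strain differences from -0.25 to 0.19 for Nes, from -0.15 to 0.21 for Slc1a3 probe 3 and from -0.27 to 0.82 for Sox9. The causes were not tested. Pool numbers 1 and 2 occur in both strains, and deviations of same-numbered pools correlated at 0.15 and -0.02. Arrays of a single pool themselves correlated only at -0.12 to 0.0092. These values therefore cannot tell whether same-numbered pools share more than a number. That replicate block called 0 probes. Counts at an unadjusted p below 0.05 ran from 242 to 1472 for the mean (367 as reported), from 276 to 2094 for MF1 (469), from 149 to 636 for C57 (214) and from 147 to 1058 for MF1 minus C57 (223). Missing ratios on the MF1 arrays and the differences between dye orientations limit what 5 pools can show.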
